A study of Mus musculus with 12 samples.

Results

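The epidermal growth factor (EGF) receptor system was followed in mouse scars through 8 genes: the receptor Egfr, its intracellular inhibitor Errfi1, and the 6 ligands Hbegf, Areg, Ereg, Tgfa, Btc and Epgn. They were taken by symbol from a table of 35976 genes in 12 RNA-seq libraries, and all 8 were among the 18853 genes with enough counts to be tested. The set was chosen by the counts of Errfi1, which differed between the genotypes under traction, so that the values of that comparison are a description and carry no test. The libraries came from scars of male mice aged 8 to 12 weeks, backcrossed to C57BL/6J for 10 generations, with 3 mice in each of 4 groups. Every mouse received a 1.5 cm split wound on the back and, on day 6, a plastic device over that wound. Wild-type mice (Tem1WT/WT) and mice in which lacZ replaces the only exon of Tem1 in every cell of the body (Tem1lacZ/lacZ) formed a sham group, where the device was not extended (WTSH and lacZSH), and a traction group, where it was extended by 1 mm a day to 8 mm (WTTR and lacZTR). Tem1, listed as Cd248, encodes a surface protein of fibroblasts and pericytes.

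Egfr is a receptor tyrosine kinase. Its ligands are made as membrane-anchored precursors, are released by ADAM proteases at the cell surface, and lead, through the adaptors Grb2 and Shc1, to the RAS-ERK and PI3K-AKT cascades. Errfi1, also known as Mig6, binds the active kinase domain and blocks it. In skin the receptor is best known from keratinocytes, which also make most of these ligands and use them in wound closure.

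Library totals ranged from 41536788 to 64644293 counts, and the members had between 83 and 15017 counts in a library. Levels are given in CPM, the count relative to the total of its library, after TMM normalization. Cd248 was at 149.8 ± 38.3 CPM in WTSH and 208.7 ± 122.9 in WTTR (SD, n = 3 here and below), and at 0.122 ± 0.0593 in lacZSH and 0.120 ± 0.124 in lacZTR, which fits the genotype labels. Markers of fibroblasts (8 of 8) and of basal (8 of 8) and suprabasal (9 of 9) keratinocytes passed the filter on low counts, so the scars held epidermis as well as dermis. Those of skeletal muscle (7 of 7) and adipocytes (7 of 7) passed too. Their sums varied widely, from 323.8 to 12750 CPM for muscle and from 154.2 to 5496 CPM for adipocytes. The part of these tissues in the values below was not tested. WTTR replicate 1 stood apart: its 7 tested neutrophil markers summed to 7053 CPM against 115.8 to 665.7 in the other libraries, its 7 mast cell markers to 1274 against 152.2 to 330.8, and its 9 suprabasal keratinocyte markers to 2158 against 6052 to 18610. Of the mast cell list only Hdc passed the edgeR test with traction in Tem1WT/WT mice (log2 fold change 5.63, SE 1.33). The rest ran from -0.64 (Cpa3) to 0.40 (Fcer1a), so that sum does not stand for the list as a whole. In whole tissue, fewer cells of a type and less RNA per cell cannot be told apart.

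In the GRCm38 build, Egfr lies at chr11:16752203-16918158 and Errfi1 at chr4:150853919-150868892, both on the plus strand. Epgn, Ereg, Areg and Btc form a cluster of 376 kb on chromosome 5, from 91027464 to 91402994, with Btc on the minus strand and the others on the plus strand. Tgfa is at chr6:86195223-86275719 on the plus strand. GENCODE places a gene on the opposite strand within Egfr, Errfi1, Ereg and Tgfa, and whether the counting used strand is not given in the sources used here, so reads of these pairs may not have been told apart.

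The stretches of 250 bases before a start site are shown for Errfi1, the gene on which the choice rests, for Areg, the other member searched that had the same motif, and for Btc, the member that passed the test under traction. They are RefSeq sequences of GRCm38.p6, 5′ to 3′ on the gene's strand, and capitals mark TGACGTCA (the cAMP response element) and TATAAA (the TATA box). The search covered 7 such entries for 6 of the 8 members, 2 of them for Errfi1. Ereg had no entry, and the chromosome of Hbegf was left out of the search.
Errfi1, first start (chr4:150853546-150853795, plus strand): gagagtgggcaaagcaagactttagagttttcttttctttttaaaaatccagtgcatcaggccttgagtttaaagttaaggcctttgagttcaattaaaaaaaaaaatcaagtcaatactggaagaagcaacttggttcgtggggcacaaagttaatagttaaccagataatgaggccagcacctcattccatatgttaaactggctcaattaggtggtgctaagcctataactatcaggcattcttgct
Errfi1, second start (chr4:150854820-150855069, plus strand): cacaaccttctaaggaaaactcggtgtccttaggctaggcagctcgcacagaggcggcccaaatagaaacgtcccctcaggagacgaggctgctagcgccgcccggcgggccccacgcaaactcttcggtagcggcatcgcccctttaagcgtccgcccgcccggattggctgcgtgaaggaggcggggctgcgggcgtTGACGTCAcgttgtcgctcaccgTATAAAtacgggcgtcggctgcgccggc
Areg (chr5:91139349-91139598, plus strand): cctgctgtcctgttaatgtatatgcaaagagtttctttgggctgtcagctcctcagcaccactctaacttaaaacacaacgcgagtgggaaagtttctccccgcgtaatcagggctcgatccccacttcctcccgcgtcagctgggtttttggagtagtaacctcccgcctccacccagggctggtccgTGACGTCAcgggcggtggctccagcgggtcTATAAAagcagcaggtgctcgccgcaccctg
Btc (chr5:91402995-91403244, minus strand): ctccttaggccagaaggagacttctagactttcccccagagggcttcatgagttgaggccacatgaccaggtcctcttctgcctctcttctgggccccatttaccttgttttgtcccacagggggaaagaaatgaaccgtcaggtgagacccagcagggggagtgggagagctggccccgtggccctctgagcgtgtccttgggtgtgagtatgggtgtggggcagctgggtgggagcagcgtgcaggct
TGACGTCA stood 51 to 44 bases before the second Errfi1 start and 61 to 54 bases before the Areg start, and in none of the other 5 entries. Of 32851 mouse promoters of this kind, 1.55% hold it. TATAAA followed it in both, at 28 to 23 and 31 to 26 bases before the start, and was also found 86 to 81 bases before the Epgn start, in a set where 12.4% of promoters hold it. Neither form of the AP-1 site (TGACTCA or TGAGTCA, 4.46% of promoters) nor the glucocorticoid response element (0.00913%) was found in the 7 entries on either strand. These are matches of letters and say nothing of the factors that bind there. The bases just after the first Errfi1 start were not found in any GENCODE transcript of the gene, unlike those of the other entries.

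Egfr varied little. The receptor was at 196.9, 217.9 and 169.9 CPM in WTSH and at 170.2, 208.2 and 160.1 in WTTR. Scars of Tem1lacZ/lacZ mice held 185.7, 147.3 and 156.9 CPM in lacZSH and 148.9, 172.9 and 138.9 in lacZTR. All 4 groups overlapped. The log2 fold change with traction was -0.12 (SE 0.16, edgeR adjusted p = 0.654) in Tem1WT/WT mice, with a 95% interval of -0.49 to 0.26, and -0.09 (SE 0.16, adjusted p = 0.896) in Tem1lacZ/lacZ mice. Between genotypes under sham it was -0.25 (SE 0.16, adjusted p = 0.537), with an interval of -0.63 to 0.12, which leaves room for a level lower by a moderate amount in Tem1lacZ/lacZ scars.

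Errfi1, the inhibitor, is the gene by which the set was chosen. It was at 131.8, 111.4 and 140.3 CPM in WTSH and at 131.6, 175.1 and 178.4 in WTTR. In lacZSH it was at 80.7, 91.6 and 101.0 CPM and in lacZTR at 60.4, 50.1 and 54.9. The 3 lacZTR libraries were the lowest of the 12, the 3 lacZSH libraries came next, and every Tem1WT/WT library was above every Tem1lacZ/lacZ library. Under traction the group means were 161.7 ± 26.1 CPM in WTTR and 55.1 ± 5.12 in lacZTR, a log2 fold change of -1.55 (SE 0.16), which is 2.93-fold lower in Tem1lacZ/lacZ mice. It was -1.65 without WTTR replicate 1.

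The sham scars share no library with that comparison. There Errfi1 was 1.4-fold lower in Tem1lacZ/lacZ mice, with a log2 fold change of -0.49 (SE 0.16, 95% interval -0.86 to -0.12) and groups that did not overlap, but this did not pass the test over all genes (edgeR adjusted p = 0.409). Under traction the gene moved in opposite directions in the genotypes. From WTSH to WTTR the log2 fold change was 0.34 (SE 0.16), with overlapping groups, and from lacZSH to lacZTR it was -0.72 (SE 0.16), with every lacZTR library below every lacZSH library. Because both contain libraries of the choosing comparison, they are given as values. The difference of the traction effects on the log2 scale was -1.06 (SE 0.23).

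**Figure D1:**
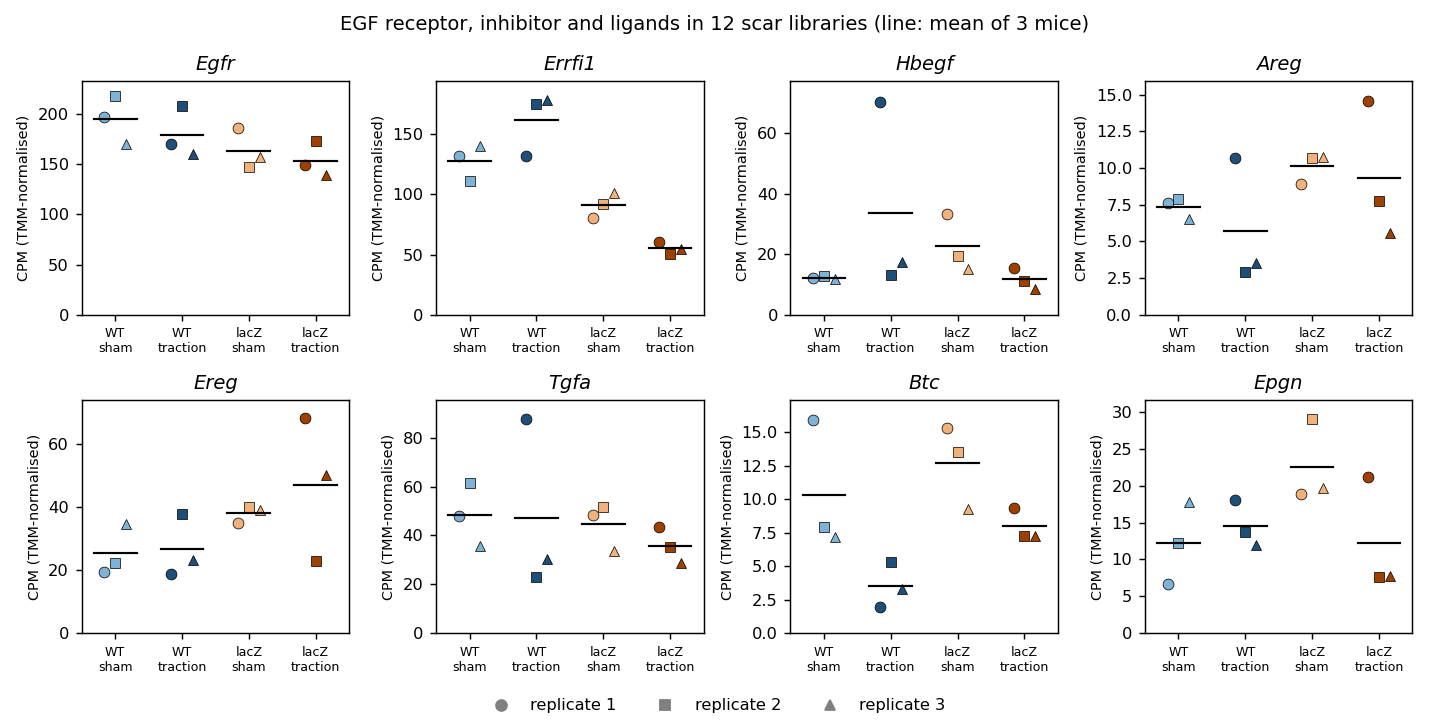
CPM (TMM-normalised) of the 8 genes in each library, by genotype and treatment, with circles, squares and triangles for replicates 1, 2 and 3 and a line at the mean of 3 mice. Egfr overlaps across all groups, Errfi1 is lowest in the 3 lacZTR libraries (50.1 to 60.4 CPM), and WTTR replicate 1 holds the highest Hbegf (70.5) and Tgfa (87.8) values.

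Set against the receptor, the inhibitor showed the same order of groups. With each gene's level divided by its exon length in kilobases, Errfi1 was above Egfr in 11 of 12 libraries. The ratio of Errfi1 to Egfr was 2.12, 1.62 and 2.61 in WTSH, 2.44, 2.66 and 3.52 in WTTR, 1.37, 1.97 and 2.04 in lacZSH, and 1.28, 0.917 and 1.25 in lacZTR. The lacZTR libraries held the 3 lowest ratios, and lacZTR replicate 2 was the only library with less inhibitor than receptor mRNA per length. The WTSH and lacZSH ratios overlapped. Since Errfi1 under traction chose the set, no test was made of this ratio.

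**Figure D2:**
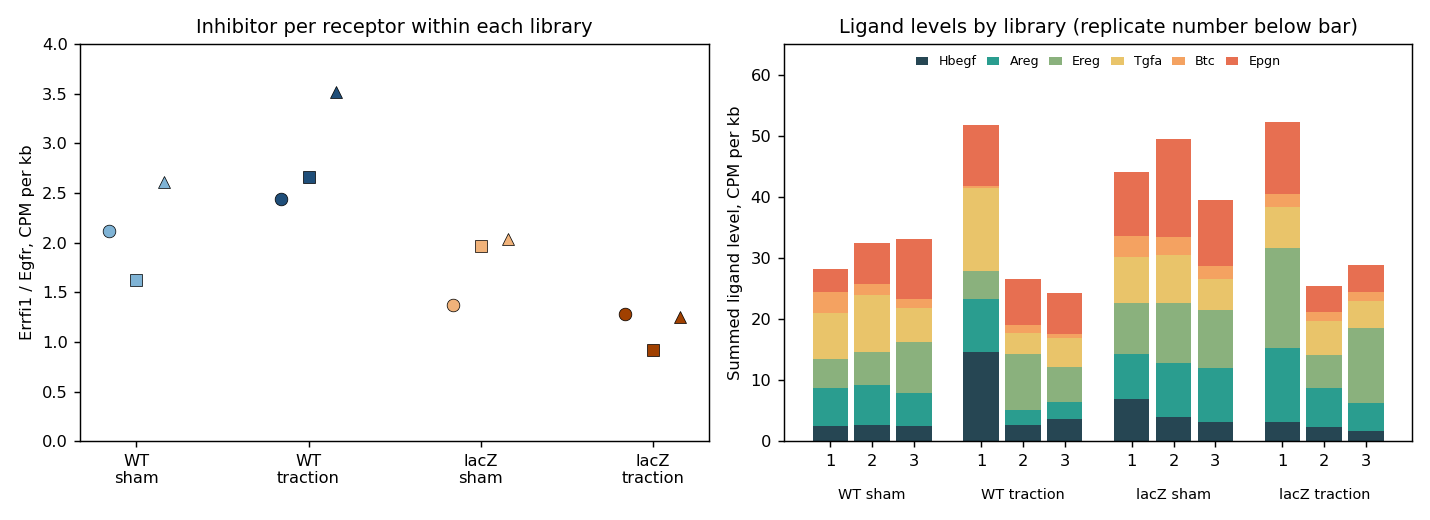
Left, ratio of Errfi1 to Egfr, both in CPM per kb of exon, in each library by group, with marker shapes for the replicate number. Right, levels of the 6 ligands in CPM per kb stacked for each library. The ratio is lowest in lacZTR (0.917 to 1.28), and the summed ligand level is highest in lacZTR replicate 1 (52.2) and WTTR replicate 1 (51.8).

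Of the ligands, Hbegf, the heparin-binding ligand that keratinocytes and macrophages release early in wounds, was at 12.1, 12.8 and 11.96 CPM in WTSH and at 70.5, 13.1 and 17.4 in WTTR. In lacZSH it was at 33.4, 19.5 and 15.0 CPM and in lacZTR at 15.6, 11.04 and 8.4. One WTTR library was thus at 70.5 CPM, and the other 2 were close to the sham level. The log2 fold change with traction in Tem1WT/WT mice was 1.45 (SE 0.56, edgeR adjusted p = 0.105, above every WTSH library in 3 of 3), and it was 0.29 (adjusted p = 0.596) without WTTR replicate 1, the library with the high neutrophil sum. The part of the neutrophil and mast cell markers in this value was not tested. In Tem1lacZ/lacZ mice the log2 fold change was -0.95 (SE 0.55, adjusted p = 0.653), and lacZTR replicate 1 lay within the range of lacZSH.

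Tgfa, a ligand that keratinocytes make for themselves, was at 48.1, 61.3 and 35.7 CPM in WTSH and at 87.8, 23.1 and 30.4 in WTTR. It was at 48.2, 51.6 and 33.6 CPM in lacZSH and at 43.4, 35.1 and 28.8 in lacZTR. Here too WTTR replicate 1 was the highest of the 12 libraries, while the other WTTR libraries were below every WTSH library. In Tem1WT/WT mice the log2 fold change was -0.04 (SE 0.43, edgeR adjusted p = 0.962) and was -0.88 without WTTR replicate 1. For Tgfa the WTTR mean of 47.1 ± 35.4 CPM thus lay far from each of its 3 mice.

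Btc, betacellulin, which also binds ErbB4, was the member that fell with traction in Tem1WT/WT mice. It was at 15.9, 7.9 and 7.2 CPM in WTSH and at 2.0, 5.3 and 3.3 in WTTR. In lacZSH it was at 15.3, 13.5 and 9.2 CPM and in lacZTR at 9.4, 7.3 and 7.3. All 3 WTTR libraries were the lowest of the 12. From WTSH to WTTR the log2 fold change was -1.55 (SE 0.39, 95% interval -2.45 to -0.64, edgeR adjusted p = 0.0397), which is 2.92-fold lower, in 3 of 3 mice. With lacZ in place of Tem1 it was -0.67 (SE 0.38, adjusted p = 0.651), and the difference between these effects, 0.87 (SE 0.54), was not past the threshold. The call depended on single libraries: the adjusted p was above 0.05 in 9 of the 12 fits that each left out 1 library, reaching 0.145 (log2 fold change -1.10) without WTSH replicate 1, 0.0788 (-1.27) without WTTR replicate 1, 0.091 (-1.50) without WTTR replicate 3 and 0.0906 (-1.68) without WTSH replicate 2. Without lacZSH replicates 1, 2 or 3 or lacZTR replicates 2 or 3, which are not in the comparison, the log2 fold change stayed at -1.54 to -1.56 and the adjusted p was between 0.0501 and 0.0556, and with the replicate number as a block it was 0.0522. The sums of 11 hair follicle markers were also lower with traction in Tem1WT/WT mice, at 16110, 29760 and 16150 CPM in WTSH and 4329, 7905 and 4334 in WTTR, and those of 7 sebocyte markers went from 2797, 2050 and 1556 CPM to 1114, 1499 and 679.9. In lacZSH replicate 1 Btc was among the highest values (15.3 CPM). The hair follicle sum of that library was the lowest of the 12 (4148 CPM) and its sebocyte sum the highest (4255 CPM). The part of these cell types in the Btc value was not tested.

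Areg, amphiregulin, was at 7.6, 7.9 and 6.6 CPM in WTSH and at 10.7, 2.9 and 3.5 in WTTR. The gene was at 8.9, 10.7 and 10.7 CPM in lacZSH and at 14.6, 7.7 and 5.6 in lacZTR. WTTR replicate 1 was above WTSH and the other WTTR libraries below it. The log2 fold change with traction was -0.37 (SE 0.47, edgeR adjusted p = 0.619) in Tem1WT/WT mice, -1.22 without WTTR replicate 1, and -0.13 (SE 0.46, adjusted p = 0.953) in Tem1lacZ/lacZ mice. Ereg, epiregulin, was at 19.5, 22.1 and 34.5 CPM in WTSH and at 18.7, 37.6 and 23.3 in WTTR. It was at 34.8, 40.1 and 39.1 CPM in lacZSH and at 68.0, 22.9 and 50.1 in lacZTR, the widest group. Its log2 fold changes with traction were 0.07 (SE 0.37, adjusted p = 0.924) in Tem1WT/WT and 0.31 (SE 0.37, adjusted p = 0.831) in Tem1lacZ/lacZ mice.

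Epgn, epigen, a ligand of low affinity for the receptor, was at 6.7, 12.2 and 17.8 CPM in WTSH and at 18.1, 13.7 and 11.98 in WTTR. It was at 18.9, 29.0 and 19.6 CPM in lacZSH and at 21.2, 7.6 and 7.7 in lacZTR. The lacZSH libraries were all above the WTSH libraries, and lacZTR replicate 1 stayed at the lacZSH level while the other lacZTR libraries were near the lowest value of WTSH. The log2 fold change with traction was 0.25 (SE 0.44, edgeR adjusted p = 0.731) in Tem1WT/WT mice and -0.89 (SE 0.44, adjusted p = 0.622) in Tem1lacZ/lacZ mice.

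In sham scars, 4 of the 6 ligands were higher in every Tem1lacZ/lacZ mouse than in every Tem1WT/WT mouse: Hbegf (log2 fold change 0.88, SE 0.55, edgeR adjusted p = 0.533), Epgn (0.88, SE 0.44, adjusted p = 0.451), Ereg (0.58, SE 0.38, adjusted p = 0.541) and Areg (0.46, SE 0.47, adjusted p = 0.703). Btc (0.30, SE 0.38, adjusted p = 0.776) and Tgfa (-0.12, SE 0.43, adjusted p = 0.932) overlapped. With Errfi1 in the other direction, the groups did not overlap for 5 of the 8 members, against 26.8% of all genes tested (13% higher and 13.8% lower), and no member passed the test (0 of 8 by edgeR, DESeq2 and limma-voom, against 0.0106%, 0.307% and 0.0053% of all genes), with 1 of 8 at an unadjusted p under 0.05 by edgeR (11.7% of all genes). The median log2 fold change of the members was 0.38 and that of all genes -0.01. The 4 ligands that did not overlap included 3 of the 4 genes of the chromosome 5 cluster, which are neighbours and not independent of each other.

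Markers of wound-edge keratinocytes (Krt6a, Krt6b, Krt16, Krt17 and Sprr1b, keratins and an envelope protein that epidermis switches on after injury) also differed in sum between the sham groups. The sum was 3298, 3175 and 8994 CPM in WTSH and 11230, 11470 and 13800 in lacZSH. Of the 5 genes, Krt6a, Krt16 and Krt17 did not overlap between the sham groups and Krt6b and Sprr1b did, and none passed the edgeR test or had an unadjusted p under 0.05. Under traction the sum was 20720, 6731 and 10530 CPM in WTTR and 26630, 4216 and 4866 in lacZTR. The library with the highest sum, lacZTR replicate 1, held the highest Areg and Ereg values of the 12, and its Epgn level was 21.2 CPM against 7.6 and 7.7 in the rest of its group. WTTR replicate 1, with the next highest sum, held the lowest Ereg value of the 12 (18.7 CPM). The 8 basal keratinocyte markers were also highest in lacZTR replicate 1, at 32100 CPM against 7957 and 8865 in the other lacZTR libraries. The part of the amount of epidermis in the ligand values was not tested.

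**Figure D3:**
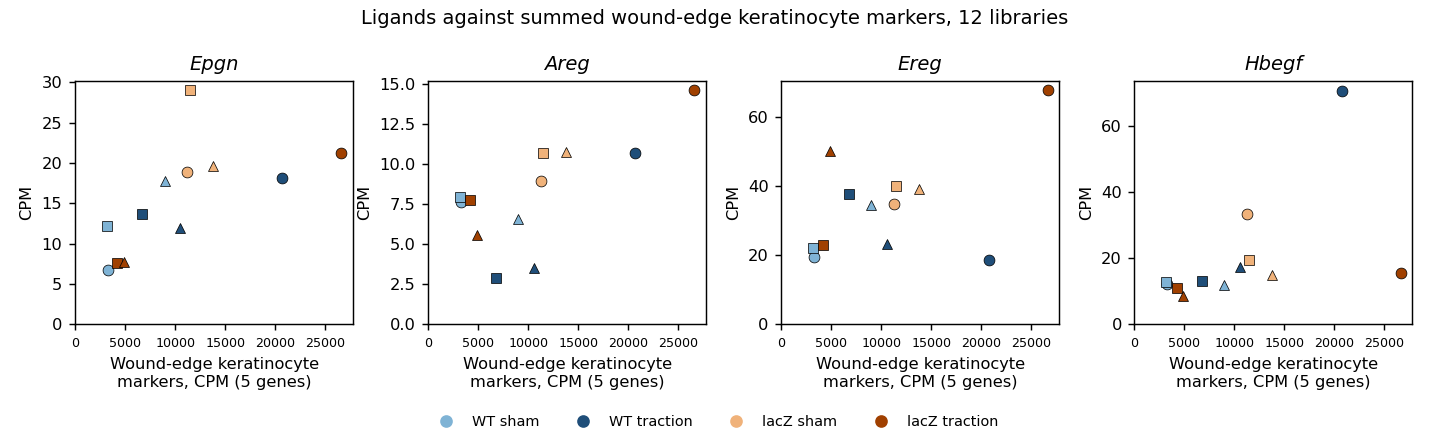
CPM of Epgn, Areg, Ereg and Hbegf (vertical) against the summed CPM of 5 wound-edge keratinocyte markers (horizontal) in each of 12 libraries, coloured by group, with marker shapes for the replicate number. The lacZSH libraries lie at 11230 to 13800 CPM and above all WTSH libraries on both axes, and lacZTR replicate 1 lies far right in each panel.

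Per length of exon, the ligands were each below the receptor on average in every group. In WTSH the order of mean levels was Tgfa (7.45 CPM per kb), Epgn (6.78), Ereg (6.14), Areg (6.07), Hbegf (2.54) and Btc (2.29), and among neighbours only Areg and Hbegf had ranges that did not overlap (with the longest transcript, Hbegf and Btc as well). In lacZSH Epgn led (12.5 ± 3.13 CPM per kb) and did not overlap with the next, Ereg (9.20 ± 0.682), while all lower neighbours overlapped. With lengths of the longest transcript Tgfa came next there and overlapped with Epgn, and Hbegf and Btc did not overlap. In WTTR the order was Epgn, Tgfa, Hbegf, Ereg, Areg and Btc, where only Btc (0.782 ± 0.370 CPM per kb) was clear of its neighbour, and with lengths of the longest transcript Hbegf came first. In lacZTR the order was Ereg (11.4 ± 5.49 CPM per kb), Areg, Epgn, Tgfa, Hbegf and Btc, with a gap only between Tgfa and Hbegf, which with the longest transcript lay between Hbegf and Btc. Btc was the lowest ligand in all 4 groups. Summed over the 6 ligands the level was 31.3 ± 2.71 CPM per kb in WTSH, 44.3 ± 5.04 in lacZSH, 34.2 ± 15.3 in WTTR and 35.5 ± 14.6 in lacZTR. The sum varied little within the sham groups, where every lacZSH library (39.5 to 49.6) was above every WTSH library (28.2 to 33.1), and widely within both traction groups.

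Over all 8 members, traction in Tem1WT/WT mice gave 1 call by edgeR (Btc, lower), where 9.15% of all genes tested passed (5.61% higher and 3.54% lower). An unadjusted p under 0.05 was found for 2 members, against 31.4% of all genes. DESeq2 called 2 members (21.6% of all genes), Hbegf and Btc, and limma-voom called 0 (3.9%). The groups did not overlap for 2 members, Hbegf and Btc, against 35.7% of all genes, and the median log2 fold change was 0.01 against -0.01 over all genes. In Tem1lacZ/lacZ mice 0 members passed by edgeR, as for all genes tested (0%), and 1 had an unadjusted p under 0.05 (8.12% of all genes). DESeq2 and limma-voom each called 1 member there, Errfi1 (0.19% and 2% of all genes), from which nothing is read because the lacZTR libraries took part in choosing it. Of the 8 members 7 had a negative log2 fold change in this comparison, with a median of -0.49 against -0.01 over all genes, and groups did not overlap for 1 member, against 12.9%. Between genotypes under traction, which chose the set, 1 member was called by edgeR (0.106% of all genes), 1 by limma-voom (0.0849%) and 3 by DESeq2 (13.2%), with 3 at an unadjusted p under 0.05 by edgeR (26.1%). Groups did not overlap for 2 members, Errfi1 and Btc, against 26.6% of all genes. Since this comparison chose the set, nothing is read from these counts. There the log2 fold changes were -1.53 for Hbegf (-0.36 without WTTR replicate 1), 1.17 for Btc, 0.82 for Ereg, 0.71 for Areg, -0.40 for Tgfa, -0.26 for Epgn and -0.23 for Egfr. Every lacZTR library was above every WTTR library for Btc, and the groups overlapped for the other 6. For the interaction 0 members were called by edgeR and limma-voom (0% of all genes by both) and 1 by DESeq2 (0.368%), with 2 at an unadjusted p under 0.05 by edgeR (8.91%). The comparisons share groups, so that a high or low group enters more than 1 of them.

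**Figure D4:**
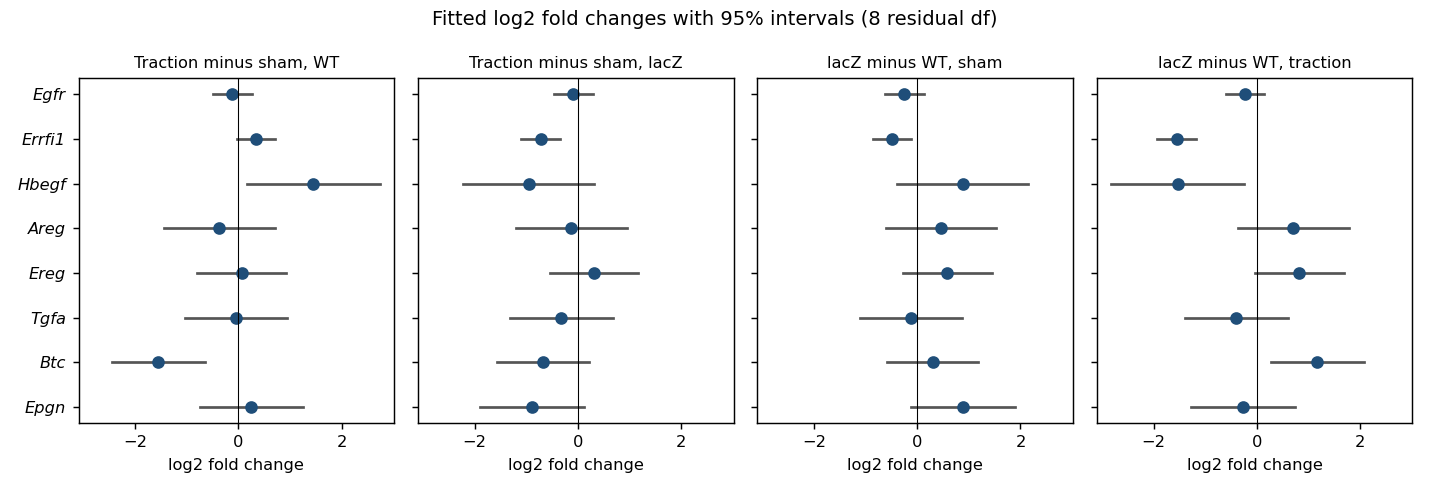
Fitted log2 fold changes of the 8 genes (points) with 95% intervals (lines, from the SE and 8 residual degrees of freedom) in 4 comparisons of 3 against 3 mice. Intervals of Egfr are narrow and include 0 in each panel, and the interval of Btc with traction in Tem1WT/WT mice runs from -2.45 to -0.64.

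The rest of the pathway was read from 7 lists. Of the other receptors, Erbb2 and Erbb3 were tested and Erbb4, with at most 6 counts in a library, was not. In Tem1WT/WT mice the log2 fold change with traction was -0.38 (SE 0.23, edgeR adjusted p = 0.275) for Erbb2 and -0.73 (SE 0.27, adjusted p = 0.0934) for Erbb3, the partner that binds neuregulins. Of 4 further ligands tested, Nrg1, a neuregulin that binds ErbB3 and ErbB4, rose from 2.87, 5.01 and 5.86 CPM in WTSH to 45.8, 14.2 and 23.5 in WTTR (log2 fold change 2.60, SE 0.44, adjusted p = 0.0252). The others had negative values and did not pass by edgeR: Egf (-2.05, SE 0.61, adjusted p = 0.0566), Nrg4 (-1.11, SE 0.57, adjusted p = 0.211) and Nrg2 (-1.08, SE 0.41, adjusted p = 0.102). By DESeq2 Nrg1 was called higher and Egf and Nrg2 lower, where 21.6% of all genes were called. The median of the 4 ligands was -1.10. In lacZSH Nrg1 was at 11.7, 7.47 and 8.86 CPM and in lacZTR at 8.01, 14.3 and 9.33, where the groups overlapped.

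Among 9 genes for proteases that shed ligands or their partners, 4 rose with traction in Tem1WT/WT mice and none fell, with a median of 0.71, where 5.61% of all genes tested were called higher and 3.54% lower (9.15% in all). The same shares apply to the lists that follow. They were Adam8, a protease of neutrophils and macrophages (log2 fold change 2.80, SE 0.73, edgeR adjusted p = 0.042), Adam12 (1.86, SE 0.51, adjusted p = 0.0475), Adam19 (1.46, SE 0.31, adjusted p = 0.0311) and Adam9 (0.75, SE 0.21, adjusted p = 0.0475). Adam12, which was at 58.1, 190.8 and 239.0 CPM in WTSH and at 361.5, 570.8 and 833.6 in WTTR, is made by fibroblasts and other mesenchymal cells. Adam8 was at 559.2 CPM in WTTR replicate 1 and at 91.2 and 95.5 in the others, above 22.9 to 58.4 in WTSH. Adam17, the main sheddase of several members, and Adam10 did not pass.

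Of 19 adaptors and kinases, 4 rose (against 5.61% of all genes): Grb2 (log2 fold change 0.91, SE 0.23, edgeR adjusted p = 0.0381), Akt1 (0.87, SE 0.19, adjusted p = 0.0326), Map2k1, which phosphorylates ERK (0.85, SE 0.23, adjusted p = 0.0433), and Shc1 (0.74, SE 0.17, adjusted p = 0.0329), with a median of 0.13 over the list. Of 18 other feedback inhibitors, Spred3, which restrains RAS signalling, rose (1.26, SE 0.32, adjusted p = 0.0387) from 2.45 ± 0.731 to 5.88 ± 1.47 CPM, with a median of 0.18. Among 16 genes that ERK signalling induces, Plaur (4.05, SE 1.06, adjusted p = 0.0423), Fosl1 (2.94, SE 0.53, adjusted p = 0.0252) and Ier3 (2.21, SE 0.58, adjusted p = 0.0431) rose, and Egr2 (-1.19, SE 0.28, adjusted p = 0.0338) fell, with a median of 0.58. Plaur, the urokinase receptor, was at 674.8 CPM in WTTR replicate 1 and at 27.3 and 48.6 in the others. Glucocorticoids also induce Errfi1, and of 7 genes they induce, the clock gene Per1 (0.84, SE 0.18, adjusted p = 0.0311) and the chaperone partner Fkbp5 (1.03, SE 0.26, adjusted p = 0.0397) rose, with a median of 0.09.

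These 16 calls were reduced to 2, Nrg1 (log2 fold change 2.02, adjusted p = 0.0408) and Fosl1 (2.30, adjusted p = 0.0441), when WTTR replicate 1 was left out, where the calls over all genes also fell from 1725 to 360. The values without it stayed positive for the 15 genes that rose, and ranged from 0.46 (Map2k1) to 2.30. Fold changes fell most for Plaur (1.30), Adam8 (1.37) and Ier3 (0.80), while those of Akt1 (0.88), Fkbp5 (1.03) and Adam12 (2.09) were as large or larger. The sums of 8 fibroblast markers (2 of 8 called higher) were 26490, 33940 and 41950 CPM in WTSH and 44060, 72630 and 111400 in WTTR. Those of 7 endothelial markers (4 of 7 called higher) were 343.3, 437.4 and 505.5 CPM in WTSH and 834.8, 918.3 and 993.0 in WTTR. The fibroblast sum is weighted towards collagens (up to 2755006 counts of Col3a1 in a library). Its Dcn (log2 fold change -0.09), Dpt (-0.38), Lum (0.51) and Col3a1 (1.08) overlapped between WTSH and WTTR. Its Pdgfra (1.45), Fbln1 (0.90), Col1a1 (1.68) and Col1a2 (1.48) did not. The part of these cell types in the pathway values was not tested.

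**Figure D5:**
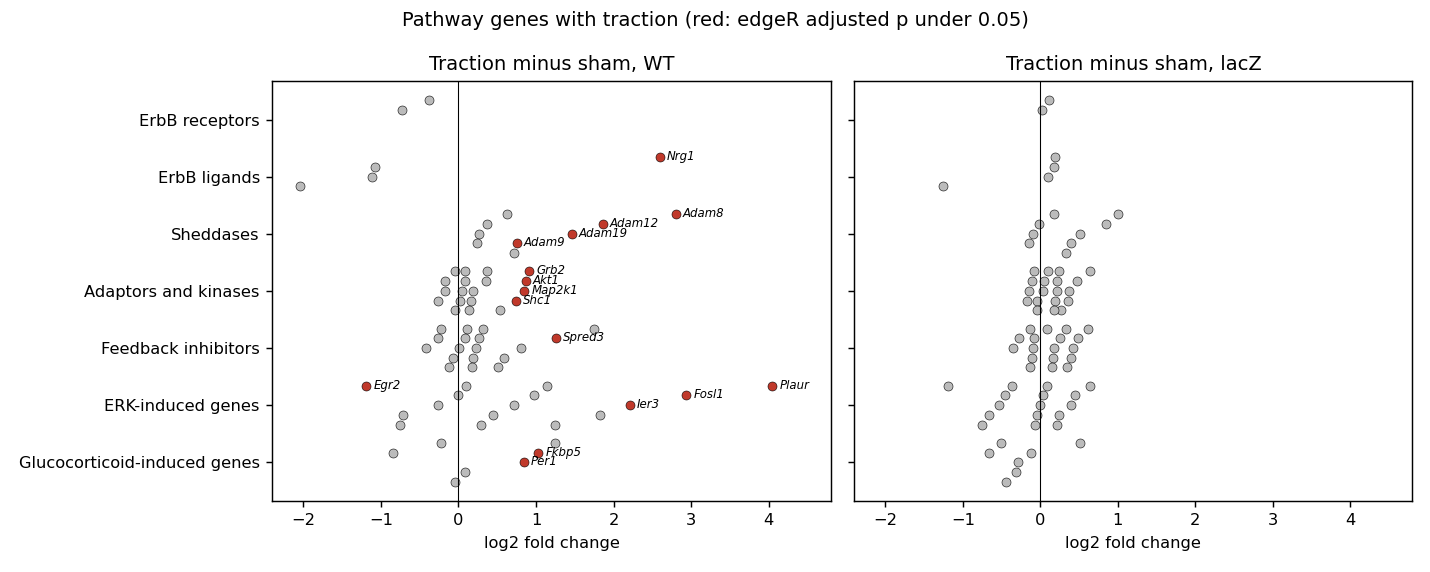
Log2 fold changes with traction of the genes of 7 pathway lists (1 point a gene) in Tem1WT/WT mice (left) and Tem1lacZ/lacZ mice (right), with genes at an edgeR adjusted p under 0.05 in red and named. The left panel has 16 red points, 15 of them to the right of 0, and the right panel has none.

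In Tem1lacZ/lacZ mice 0 genes of the 7 lists passed with traction by edgeR, nor by DESeq2, and the same was true between genotypes under sham by edgeR, with 1 by DESeq2. Unadjusted p-values under 0.05 were found with traction in Tem1lacZ/lacZ mice for 1 of 4 ligands, 3 of 19 adaptors and kinases, 2 of 18 feedback inhibitors, 2 of 16 ERK-induced and 1 of 7 glucocorticoid-induced genes, against 8.12% of all genes. Under sham they were found for 1, 2, 3, 2 and 2 genes of the same lists, against 11.7% of all genes. The receptors and sheddases had none in either comparison. Between genotypes under traction, Fosl1 (log2 fold change -3.87, SE 0.56, edgeR adjusted p = 0.0335) and Per1 (-2.02, SE 0.18, adjusted p = 0.00257) were lower in lacZTR. The rest of the glucocorticoid-induced list went both ways there, and none of it passed by edgeR. Zbtb16 (1.81) and Fkbp5 (0.19) were higher. Dusp1 (-2.03), Tsc22d3 (-0.81), Klf9 (-0.51) and Sgk1 (-0.23) were lower. The median of that list was -0.51 under traction and -0.12 under sham. Without WTTR replicate 1 the Fosl1 value was -3.22 (adjusted p = 0.051). Fosl1 was at 8.42, 3.14 and 3.29 CPM in WTTR and at 0.468, 0.248 and 0.302 in lacZTR. Per1 was at 225.6, 140.4 and 154.2 CPM in WTTR and at 42.8, 37.9 and 47.5 in lacZTR, and like Errfi1 it was lower in every lacZSH library (46.4 to 57.1) than in every WTSH library (95.2 to 98.0), although with an adjusted p of 0.409 by edgeR (0.0132 by DESeq2). The interaction of genotype and traction passed for 0 genes of the lists by edgeR and for 3 by DESeq2. An unadjusted p under 0.05 by edgeR was found for 6 of 16 ERK-induced genes, against 8.91% of all genes. Egr3 had a positive value (0.69). The others were Plaur (-3.60), Fosl1 (-3.48), Ier3 (-2.58), Dusp1 (-1.91) and Junb (-1.83). Without WTTR replicate 1 the values were smaller for Plaur (-0.82), Fosl1 (-2.81), Ier3 (-1.14), Dusp1 (-1.15) and Junb (-0.38). Egr3 was then at 0.75. The count of 6 thus rests in part on that library.

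Per1 was also among the 5 genes whose log2 CPM followed Errfi1 most closely over the 12 libraries (Pearson r 0.86), out of the 13645 genes tested whose log2 CPM averaged 1 or more. The others were Has1, a hyaluronan synthase (r 0.88), Tnks2, a tankyrase (0.88), Ctgf, a matricellular growth factor also known as Ccn2 (0.87), and Lgi3 (0.86). For Egfr the leading genes were Pan3 (0.92), Son, Mob1b and Iws1 (0.89 each) and Rbm12 (0.86). Hbegf was followed by Atg16l1, Ptges and Tbc1d2 (0.92 each), Tgfa by Alox8 (0.91), Ezr and B4galnt3 (0.90 each) and Areg by 2610528J11Rik, Plek2 and Crb3 (0.91 each). Ereg was followed by Gm9696 (0.96), Ggct (0.94) and Il1f5 (0.93), Btc by Mill1, Atp6v1c2 and AW549877 (0.98 each) and Epgn by Hspa8 (0.96), Impa1 and Bzw1 (0.93 each). The points share the 4 groups and their cell makeup, and the genes were picked as the closest of many, so the r values are descriptions.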

How the data were processed

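RNA was extracted from a piece of each mouse scar, and TruSeq Stranded mRNA libraries were sequenced as paired-end reads on an Illumina instrument. According to the study's methods and the submitters' processing notes, the authors trimmed reads with fastp 0.20.0, aligned them to GRCm38 with HISAT2 2.1.0 and counted them on genes with featureCounts 2.0.0. The authors deposited these values as raw counts per gene, with no normalization. The annotation and the strand setting are not given in the sources used here.

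After filterByExpr by group and TMM scaling, counts were fitted in a single model of the 4 groups (8 residual degrees of freedom) with the robust quasi-likelihood test of edgeR 4.0.16 in R 4.3.3. Tests were two-sided, and Benjamini-Hochberg adjusted p-values over all 18853 genes tested were compared with 0.05. DESeq2 1.42.0 and limma 3.58.1 (voom) were alternatives, along with other scalings and filters, a replicate block, fits of 6 libraries and leaving out each library. Intervals used the fitted SE and 8 degrees of freedom. Levels per kb used the union of GENCODE vM21 exons or the longest transcript. On simulated counts of 18429 genes with 200 changed 4-fold between WTTR and WTSH, edgeR recovered 192 with 9 false calls. Figures were drawn with matplotlib 3.10.9.

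The members, gene lists and tests were chosen with earlier results of these data known. Named are all members, Cd248, up to 4 genes past the threshold per list and comparison (2 with the largest change where a list had no call in any comparison), and the 5 (Errfi1, Egfr) or 3 closest genes by Pearson r. Egf, Nrg2, Nrg4, Adam10, Adam17, Zbtb16, Dusp1, Tsc22d3, Klf9, Sgk1, Egr3, Junb and the marker genes were named outside that rule. Each library came from a different mouse.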

Additional observations from a re-analysis of the deposited data

Results flagged for a closer look

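Errfi1 was singled out because its traction effects had opposite signs in the genotypes. All 3 WTTR mice were above the WTSH mean and all 3 lacZTR mice below the lacZSH mean, and the difference of the log2 fold changes was -1.06 (SE 0.23). Its WTTR replicate 1, at 131.6 CPM, was close to the WTSH mean of 127.8. The contrast contains the libraries by which the set was chosen, so this is a description.

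Hbegf moved in the same way, with a difference of -2.41 (SE 0.78) on the log2 scale. Without WTTR replicate 1 it was -1.22. By edgeR the interaction passed for 0 of the 8 members (2 at an unadjusted p under 0.05), against 0% of all genes tested, by DESeq2 for 1 and by limma-voom for 0.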

How the results depend on the processing

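Apart from leaving out libraries, 297 of 312 values of single genes kept their direction and their side of the threshold, 6 passed it, 4 lost it and 5 changed sign. The count of members called with traction in Tem1WT/WT mice, 1, became 2 with DESeq2 (21.6% of all genes) and 0 with limma-voom (3.9%), with the replicate block or with only the 6 libraries compared, and was 0 to 2 without 1 library. For traction in Tem1lacZ/lacZ mice it went from 0 to 1 with DESeq2 and with limma-voom. Between genotypes under traction it went from 1 to 3 with DESeq2 and 0 with 6 libraries, and was 0 to 3 without 1 library (0 without lacZTR replicate 2 or 3, and 3 without WTTR replicate 2). The interaction went from 0 to 1 with DESeq2. Under sham it was 0 in every fit. Genes of the pathway lists past the threshold with traction in Tem1WT/WT mice were 16 by edgeR and 27 by DESeq2, where 9.15% and 21.6% of all genes passed. They were 2 without WTTR replicate 1, an alternative chosen after seeing the data, where 360 of all genes passed. Between genotypes under traction they were 2, 17 and 1, under sham 0, 1 and 0, and for the interaction 0, 3 and 0. The shares of all genes called by edgeR and DESeq2 were 0.106% and 13.2% under traction, 0.0106% and 0.307% under sham, and 0% and 0.368% for the interaction. Fewer libraries leave fewer degrees of freedom, and the cause of the other changes was not tested.

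Some signs changed. Ereg with traction in Tem1WT/WT mice was -0.04 with upper quartile scaling, Tgfa between genotypes under traction 0.05 with limma-voom, and the interaction with limma-voom -0.05 for Egfr, -0.17 for Ereg and 0.30 for Tgfa. Without 1 library, 22 of 480 values changed sign. With traction in Tem1WT/WT mice Tgfa ran from -0.88 to 0.30, Ereg from -0.26 to 0.35 and Epgn from -0.04 to 0.62. In Tem1lacZ/lacZ mice Egfr ran from -0.18 to 0.05, Areg from -0.56 to 0.13 and Ereg from -0.01 to 0.64. Between genotypes Tgfa ran from -0.29 to 0.11 under sham and from -0.73 to 0.45 under traction. For the interaction Egfr ran from -0.08 to 0.18, Areg from -0.19 to 1.11, Ereg from -0.07 to 0.57 and Tgfa from -0.62 to 0.59.

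Same-numbered libraries came from different mice, and their deviations from the group means had a mean r of 0.07 (-0.32 to 0.25), against -0.03 for other numbers. As not every pair was correlated, the numbers were not taken as pairs, although 9 of 12 libraries correlated best with their own number, a hint from the data and not from the design. With the block, Btc with traction in Tem1WT/WT mice was -1.48 (edgeR adjusted p = 0.0522), and Errfi1 between genotypes under traction was -1.55. Counts of at least 83 per library left the spread between mice, not depth, as the limit.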
